A study of Mus musculus with 12 samples.

Results

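Leukaemic stem cells of 2 mouse leukaemias with a wild-type Msi2 locus were compared on 6 Affymetrix arrays, 1 per sample, with 3 samples of each leukaemia. Acute myeloid leukaemia (AML) had been started by infecting haematopoietic stem and progenitor cells (KLS cells) with the MLL-AF9 fusion, and blast crisis chronic myeloid leukaemia (bcCML) by infecting such cells with BCR-ABL and NUP98-HOXA9, each followed by transplantation. All samples, those called wild-type included, carry the strain label B6;CB-Msi2Gt(pU-21T)2Imeg, which names a gene trap line of Msi2, and their genotype label gives the donor as wild-type. The age and sex of the animals, and whether a sample came from 1 animal or a pool, were not stated in the sources used. The titles call the 3 samples of a group biological replicates. The AML cells were sorted as Lin-Sca1-ckit+ and the bcCML cells as Lin-, so the sort gate and the leukaemia cannot be told apart. The other 6 of the 12 arrays of the study hold Msi2 mutant cells of both leukaemias, and they enter here through the shared estimate of spread and as a second set in which the same difference was read.

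Both leukaemias arise in the myeloid branch of blood formation, in which a stem cell gives rise to granulocytes, monocytes, mast cells, red cells and platelets. MLL-AF9 joins a chromatin regulator to an elongation factor and holds the Hoxa genes and Meis1 in an active state, often in cells that resemble granulocyte and monocyte progenitors. BCR-ABL is a constantly active tyrosine kinase that feeds the Stat5, Ras and phosphoinositide 3-kinase (PI3K) pathways, and NUP98-HOXA9 is a fusion transcription factor that blocks differentiation.

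The comparison covers 18026 of the 45037 probe sets on the array. They lie in autosomal genes, are paired with 1 gene symbol, and passed a log2 intensity of 4 (16 units) on 3 or more of the 6 wild-type arrays. They represent 10117 of the 18193 genes that have a probe set paired with 1 symbol on the array, each read from its brightest probe set. Differences are given as log2 of bcCML over AML with their standard error (SE), and adjusted p values are limma's after Benjamini-Hochberg adjustment over the 10471 genes fitted, sex-linked ones included, with a threshold of 0.05. Where no array of a leukaemia reached 16 units, the fold is a bound against that level. Such a gene passed the filter only through the other leukaemia, so the filter fixed its direction. Among genes past the threshold, 283 higher and 259 lower ones were of this kind. The counts of higher and lower list members below share this limit. "Higher" and "lower" without further words mean higher or lower in bcCML and past the threshold, and a tested gene given by its levels alone passed the threshold unless stated otherwise.

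The group, in which leukaemia and sort gate cannot be told apart, was the main source of variation among the 6 arrays. The first principal component held 83.7% of the variance and parted the AML arrays from the bcCML arrays, and the second held 7.18%. The number of arrays, 3 a group, limits the precision. Correlations were between 0.955 and 0.980 within a leukaemia and between 0.787 and 0.814 across them. Of the 10117 genes, 3767 passed the threshold (37.2%), of which 1789 were higher (17.7%) and 1978 lower (19.6%) in bcCML. A difference of at least 2-fold was also met by 2380 of them (23.5%), 1076 higher (10.6%) and 1304 lower (12.9%). The arrays of the leukaemias did not overlap for 5296 genes (52.3%). With so many genes called, each group of genes below is read against these shares and against the median log2 difference over all genes, which was 0.0026. Wild-type arrays are called AML or bcCML array 1 to 3, and those of mutant cells mutant arrays. On AML array 2 Mpo was high, while Cd34, Flt3 and Msi2 were low, and list counts above 3 that move by more than 1.5 times without this array are given with that value.

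**Figure D1:**
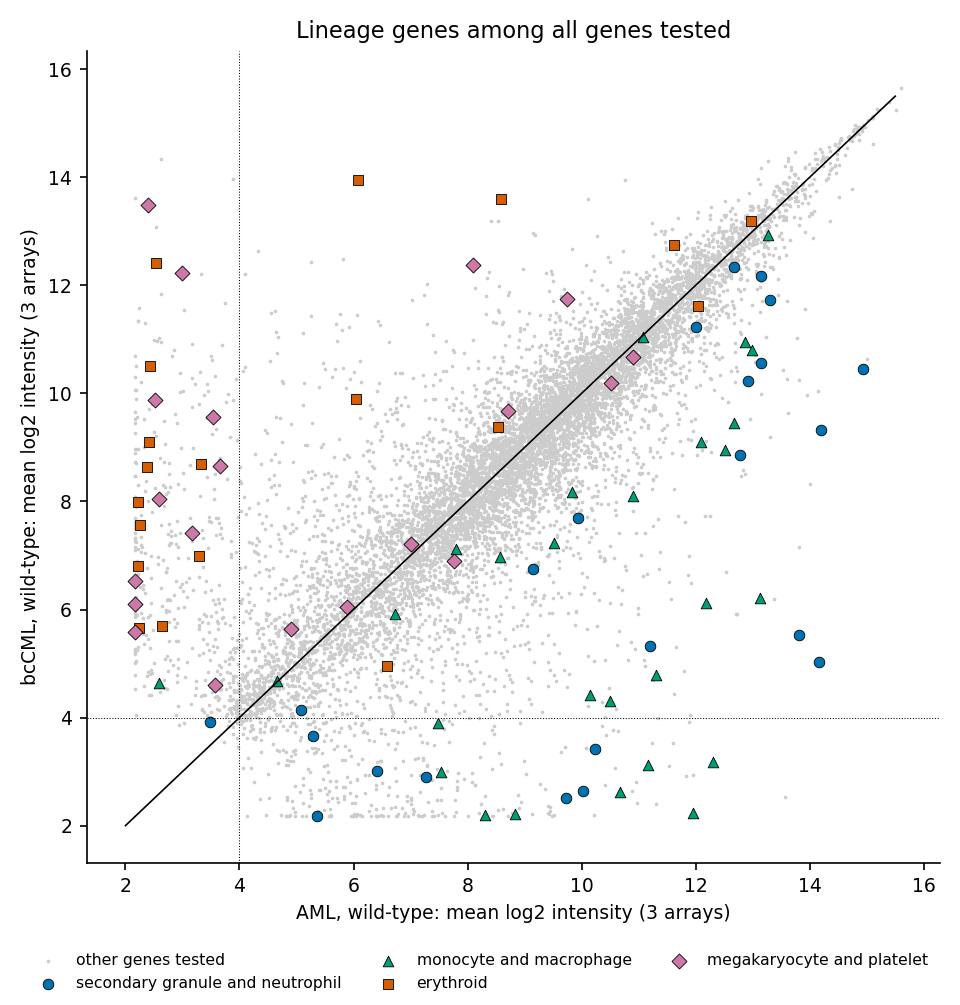
Mean log2 intensity of each of the 10117 genes on the 3 AML arrays (x axis) and the 3 bcCML arrays (y axis), with the members of 4 lineage lists marked, the line of equality drawn solid and the filter level of 4 dotted. Neutrophil and monocyte genes lie mostly below the line and erythroid and megakaryocyte genes mostly above it, many of the latter at AML levels under 4.

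Granulocyte genes were lower in bcCML, the genes of secondary granules with few exceptions and those of primary granules in part. In sorted bulk cells, fewer cells of a type and less RNA per cell cannot be told apart. Of 23 tested secondary granule and neutrophil genes, 20 were lower, with a list median of -3.19 on the log2 scale (-2.60 with members below the filter set at their bound). Camp, the cathelicidin of secondary granules, measured 16195, 21551 and 17843 units on the AML arrays and 25.04, 90.2 and 15.6 on the bcCML arrays, a log2 difference of -9.13 ± 0.70 (adjusted p = 4.56e-06). The calprotectin genes S100a8 and S100a9, which mark maturing myeloid cells, measured 17035, 20471 and 18972 and 28820, 31854 and 33178 units in AML and 622, 1037 and 409 and 1503, 1861 and 995 in bcCML. The AML arrays thus lay far above the bcCML arrays for all 3 genes, with no overlap. Chil3, a chitinase-like protein of neutrophils and macrophages, measured 15044, 12561 and 15899 units on the AML arrays and 11.1, 165 and 54.2 on the bcCML arrays, and Ngp, a granule protein of marrow neutrophils, 5520.3, 7114 and 8965 units in AML and 635, 437 and 362 in bcCML. Cd177, a surface glycoprotein of neutrophils, was lower (log2 difference -6.83 ± 0.48), and the collagenase gene Mmp8 was at least 9.66-fold lower in bcCML (adjusted p = 1.23e-05). The gelatinase gene Mmp9 and the formyl peptide receptor gene Fpr2 were listed at 5.7, 5.79 and 5.71 and 5.85, 6.46 and 6.35 units in bcCML, at least 52.8-fold and 65.4-fold lower. The phagocyte oxidase subunits Cyba and Ncf4 were lower (log2 differences -1.57 ± 0.16 and -2.69 ± 0.18).

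The primary granule genes, which are switched on at the promyelocyte stage, split. Of 19 tested, 10 were lower and 2 higher (median -1.16). Elane, neutrophil elastase, measured 16788, 23888 and 9850.4 units on the AML arrays and 2066, 1709 and 280.4 on the bcCML arrays, a log2 difference of -3.99 ± 0.77 (adjusted p = 0.00231), and Prtn3, proteinase 3, measured 14076, 18352 and 10883 units in AML and 3446, 3024 and 865 in bcCML, a log2 difference of -2.76 ± 0.48 (adjusted p = 0.001200). The lysozyme genes Lyz1 and Lyz2 were lower by larger margins, at -5.69 ± 0.36 and -6.66 ± 0.45, and the ficolin gene Fcnb was at least 118-fold lower in bcCML (adjusted p = 1.96e-07). Mpo, myeloperoxidase, did not pass: it measured 5900.2, 17242 and 1528 units on the AML arrays and 10896, 8486 and 3319 on the bcCML arrays, a log2 difference of 0.33 ± 0.85 (adjusted p = 0.7897), and the groups overlapped. The cathepsin G gene Ctsg, at 24469, 27412 and 13761 units in AML and 15426, 10947 and 4922 in bcCML, did not pass either. Mpo and Ctsg thus stayed at 1528 units or more on every array of both leukaemias, while Elane and Prtn3 parted them. The 2 members that were higher in bcCML, Cst7 (2.73 ± 0.46) and Nkg7 (1.55 ± 0.36), encode cystatin F and a granule membrane protein that cytotoxic lymphocytes also use.

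The promoters of Elane and Prtn3, neighbours of 1 granule protease cluster, are shown as the 2 of 9 lower primary granule genes with an entry that held the PU.1 motif searched, GAGGAAGT. Spi1, the gene of PU.1, was also lower in bcCML (below), and a link between its level and these genes was not tested. The sequences are those of RefSeq (build GRCm38.p6), 200 bases from 170 before to 30 after the listed start, with the motif in capitals, at chr10:79886142-79886341 (plus strand) for Elane and chr10:79879497-79879696 (plus strand) for Prtn3.
Elane: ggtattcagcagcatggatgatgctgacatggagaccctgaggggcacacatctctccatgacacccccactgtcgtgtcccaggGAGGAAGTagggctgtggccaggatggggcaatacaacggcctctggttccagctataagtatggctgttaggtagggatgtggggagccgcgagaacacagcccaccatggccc
Prtn3: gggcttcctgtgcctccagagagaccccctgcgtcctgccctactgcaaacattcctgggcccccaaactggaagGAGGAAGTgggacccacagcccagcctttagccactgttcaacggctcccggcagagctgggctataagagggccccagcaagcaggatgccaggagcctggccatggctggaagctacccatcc
The match began 85 bases before the start in Elane and 95 bases before it in Prtn3. Promoter windows in the table used run from 250 bases before to 50 after a start. Read on either strand, the motif was present in 2 of the 9 primary granule genes that were lower and had an entry, in 5 of 15 lower monocyte genes, in 3.99% of the 8291 tested genes with an entry and in 3.20% of all 32851 promoters. Another motif searched, TTGCNNAA of the C/EBP factors, was present in 4 of the same 9 genes and in 10% of the tested genes with an entry. A match describes the letters of the window and not a bound site. Close copies such as Lyz1 and Lyz2, or the globin gene Hba-a2 and its twin Hba-a1, may share probe signal and were not told apart.

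Monocyte and macrophage genes were lower to a similar extent. Of 28 tested, 19 were lower and 1, Fcgr1, a high-affinity receptor for immunoglobulin G, was higher (4.68, 9.04 and 5.11 units in AML and 16.3, 54.2 and 17.9 in bcCML; list median -3.39). Csf1r, the receptor of macrophage colony-stimulating factor, measured 3478, 4771 and 3798 units on the AML arrays and 4.56, 5.14 and 4.5 on the bcCML arrays, at least 249-fold lower in bcCML (adjusted p = 4.77e-07). Irf8, a factor of the monocyte and dendritic fate, measured 1361, 1601 and 2006 units in AML and 4.53, 5.65 and 9.23 in bcCML, at least 102-fold lower in bcCML (adjusted p = 1.34e-06). Both genes were thus bright on all AML arrays and below the filter level on all bcCML arrays. Mpeg1, a pore-forming protein of phagocytes, was at least 144-fold lower in bcCML (adjusted p = 2.21e-06), and Ms4a6c, a four-pass membrane protein, was at least 315-fold lower in bcCML (adjusted p = 2.48e-07). F13a1, the clotting factor subunit made by monocytes, measured 2420.3, 3781 and 1798 units in AML and 30.3, 48.6 and 14.2 in bcCML. The cathepsin gene Ctss measured 8206, 9177 and 9376 units in AML and 46.9, 98.6 and 88.4 in bcCML. Ccr2, the chemokine receptor by which monocytes leave the marrow, kept a level of 286, 262 and 275 units in bcCML against 1788, 2913 and 1353 in AML, a log2 difference of -2.81 ± 0.50 (adjusted p = 0.001399). Fcgr3, a low-affinity receptor for immunoglobulin G, remained at 2941, 2235 and 1202 units, a log2 difference of -1.90 ± 0.36 (adjusted p = 0.00217).

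Genes of dendritic cells and MHC class II presentation varied more between arrays. Of 13 tested, 5 were lower (median -1.72), among them Ctsh, cathepsin H, with 2774, 3089.7 and 3082 units on the AML arrays and 19.7, 7.27 and 4.49 on the bcCML arrays, and H2-DMa, which loads peptides onto class II molecules (-2.34 ± 0.25, adjusted p = 5.6e-05). Without AML array 2 the count was 3. The class II chain H2-Aa measured 138, 949 and 95.7 units on the AML arrays and 14.99, 70.3 and 333 on the bcCML arrays and its companion Cd74 257, 2951 and 234 units in AML and 51.9, 335 and 605 in bcCML. AML array 2 was the highest for both genes and the bcCML arrays spanned a wide range, so the groups overlapped and neither passed. The plasmacytoid marker Siglech and the dendritic lectin Cd209a lay below the filter, at no more than 7.35 and 4.52 units on any wild-type array.

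Erythroid genes were higher in bcCML, most of them from levels below the filter in AML. Of 19 tested, 15 were higher and 1, the globin gene Hba-a2 (-0.42 ± 0.15), was lower by a margin that lost its call when any one of the 12 arrays other than bcCML array 1 and bcCML mutant array 1 was left out (adjusted p up to 0.175), with a list median of 4.59 (3.57 at the bounds). Car1 and Car2 encode carbonic anhydrases of red cells. Car1 measured 8.31, 4.5 and 5.2 units on the AML arrays and 10848, 2729 and 5403 on the bcCML arrays, at least 339-fold higher in bcCML (adjusted p = 1.69e-07). Car2 measured 23.4, 23.4 and 554 units in AML and 14337, 17179 and 15808 in bcCML, with AML array 3 above the other AML arrays. Klf1, the master factor of red cell genes, measured 13.3, 10.3 and 7.42 units in AML and 607, 279 and 419 in bcCML, at least 25.9-fold higher in bcCML (adjusted p = 1.3e-06). Epor, the erythropoietin receptor, measured 4.77, 4.5 and 5.12 units in AML and 373, 84.8 and 215 in bcCML, at least 11.8-fold higher in bcCML (adjusted p = 5.7e-06). Hemgn, Ermap and Rhag, all genes of erythroid precursors, were at least 34.3-fold, 24.99-fold and 15.9-fold higher. Late erythroid genes were uneven among the bcCML arrays: Slc4a1, the band 3 anion exchanger, measured 1141, 53.9 and 33.7 units and the water channel gene Aqp1 914, 17.4 and 87.7 units, highest on bcCML array 1 in both cases. Slc4a1 passed (adjusted p = 0.0244) but not without AML array 1 or 2 (up to 0.0661). Alas2, the haem synthesis enzyme of maturing red cells, was below the filter, with 37.8 units on bcCML array 1 and no more than 4.53 on the other 5. Among the haem enzymes, Cpox (2.82 ± 0.35), Alad (1.90 ± 0.40) and Urod (0.60 ± 0.15) were higher, the broadly used synthase gene Alas1 was lower (-2.47 ± 0.24), and the transferrin receptor genes Tfr2 and Tfrc were higher by 5.44 and 1.11. In the iron and haem list as a whole 5 of 28 were higher and 8 lower, the latter including the macrophage iron genes Slc11a1 (at least 29.6-fold lower) and Slc40a1 (-3.66 ± 0.59), and 5 were lower without bcCML array 3.

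The promoters of Klf1 and Epor are shown as 2 of the 6 among 10 higher erythroid genes with an entry that held a GATA motif, searched as TGATAA or AGATAA on either strand. The windows are chr8:84901812-84902011 (plus strand) for Klf1 and chr9:21963547-21963746 (minus strand) for Epor, drawn as above with the motif, here on the opposite strand, in capitals.
Klf1: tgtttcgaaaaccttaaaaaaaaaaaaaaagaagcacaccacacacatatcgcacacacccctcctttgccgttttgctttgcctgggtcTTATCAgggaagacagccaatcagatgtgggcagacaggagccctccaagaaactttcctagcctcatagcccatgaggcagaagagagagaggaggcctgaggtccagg
Epor: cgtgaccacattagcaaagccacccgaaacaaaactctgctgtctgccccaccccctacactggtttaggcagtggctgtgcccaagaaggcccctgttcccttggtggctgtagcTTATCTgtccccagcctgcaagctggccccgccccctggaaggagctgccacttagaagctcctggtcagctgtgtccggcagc
The match began 80 bases before the start in Klf1 and 54 bases before it in Epor. The motif was found in 4 of 10 higher megakaryocyte genes, in 12.3% of the tested genes with an entry, and in 18.6% of all promoters of the table. It was also found in 6 of 18 lower secondary granule genes and in 3 of 15 lower monocyte genes, so it was not particular to the higher lists. Among all called genes with an entry, 13.8% of the higher and 12.4% of the lower ones held it.

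Megakaryocyte and platelet genes formed the second group that was higher in bcCML. Of 20 tested, 12 were higher (median 3.67, 2.05 at the bounds). F2r, a thrombin receptor, measured 4.99, 5.6 and 5.14 units on the AML arrays and 11274, 9844 and 13688 on the bcCML arrays, at least 718-fold higher in bcCML (adjusted p = 1.76e-11). Pf4, platelet factor 4, measured 17.7, 4.93 and 5.68 units in AML and 5558, 2929.8 and 6667 in bcCML, a log2 difference of 9.24 ± 0.51 (adjusted p = 3.86e-07). Itga2b, the integrin chain CD41, measured 4.81, 4.52 and 8.65 units in AML and 1038, 732 and 1087 in bcCML, at least 58.6-fold higher in bcCML (adjusted p = 2.8e-07). No bcCML array overlapped an AML array for these 3 genes. Pf4 and Itga2b are among the defining markers of the lineage used here, whereas F2r is a list member only and is not read as a platelet marker. F2rl2, another thrombin receptor gene of the list, measured 13.1, 13.9 and 10.9 units in AML and 236, 549 and 501 in bcCML. Itgb3, the partner chain of CD41, was also found in AML, at 278 ± 65.6 units against 5556 ± 1910.1 (SD, n = 3). Of the subunits of the von Willebrand receptor, Gp9 measured 192, 92.8 and 275 units in bcCML and no more than 17.1 in AML, and Gp5 83.2, 41.03 and 94.3 units and no more than 4.52. Gp1bb was uneven in bcCML, at 1001, 43.5 and 423 units, and at no more than 6.77 in AML. Ppbp, a chemokine of mature platelets, reached 42.8, 54.2 and 46.8 units.

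Mast cell, basophil and eosinophil genes moved in both directions, with 6 of 14 higher and 3 lower (median 1.40), the latter 1 without AML array 2 or bcCML array 3. Ms4a2, the beta chain of the IgE receptor, measured 36.97, 37.8 and 11.99 units on the AML arrays and 1764, 2634 and 2017 on the bcCML arrays, a log2 difference of 6.36 ± 0.70 (adjusted p = 6.06e-05), while the alpha chain gene Fcer1a lay at no more than 4.51 units on every wild-type array. The mast cell chymase gene Cma1 was at least 4.05-fold higher in bcCML (adjusted p = 0.00427) and the cytokine gene Il4 at least 1.71-fold higher in bcCML (adjusted p = 0.00107). The proteases Cpa3 (172, 10.3 and 199.5 units in AML and 461, 228 and 100.3 in bcCML) and Mcpt8 (794, 492 and 489 units in AML and 3626, 1788 and 333 in bcCML) overlapped between the leukaemias and did not pass. The eosinophil gene Prg3 was lower (-3.80 ± 1.13, adjusted p = 0.02297), a call lost without AML array 1 or 2 or bcCML array 3 (up to 0.0839), and Prg2, major basic protein, did not pass and overlapped at 1909, 839 and 1099 units in AML and 2205, 493 and 83.2 in bcCML.

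Among lymphoid markers, several T and NK cell genes were higher in bcCML, while the T cell receptor subunits Cd3e and Cd3g lay below the filter. Of the 27 list members on the array only 8 passed the filter. Among these 8, 6 were higher and 1, Cd247, a signalling chain, lower (-1.35 ± 0.43, with an adjusted p of up to 0.107 without AML array 1 or 2 or bcCML array 1 or 3). The higher ones included Gzmb and Ccl5, which lay below 16 units on every AML array, so the filter fixed their direction. Gzmb, the cytotoxic protease granzyme B, measured 4.52, 4.51 and 4.51 units on the AML arrays and 1945, 985 and 2384 on the bcCML arrays, at least 104-fold higher in bcCML (adjusted p = 1.21e-08). The surface protein gene Thy1 measured 4.52, 17.02 and 4.51 units in AML and 1001, 2358 and 1894 in bcCML, the adaptor gene Lat 45.7, 16.7 and 20.9 units in AML and 1462, 1609 and 2126 in bcCML, and the chemokine gene Ccl5 was at least 19.7-fold higher in bcCML (adjusted p = 2.95e-05). The defining genes Cd3e, Cd3g and Ncr1 lay below the filter in all 6 samples, at no more than 9.03, 4.52 and 4.52 units. The summed intensity of the tested members lay between 1904 and 5497 units in AML and between 12751 and 17002 in bcCML, and the part of such cells in other results was not tested. Of the B cell list 7 members passed the filter and 3 were lower, namely Ighm, the heavy chain constant region (at least 29.9-fold), Cd79b (1098, 849.9 and 718 units in AML and 19.8, 49 and 22.6 in bcCML) and Cd2 (at least 2.901-fold). The B cell factor gene Pax5 was at no more than 4.52 units and Ms4a1 at no more than 6.89. Of 9 tested stromal and endothelial genes 4 were lower, with Vcam1 at 3913, 1409 and 2679 units in AML and 24.8, 13.1 and 54.2 in bcCML and Fn1, fibronectin, at 4369.7, 2058 and 5069.9 units in AML and 15.2, 29.6 and 55.3 in bcCML, and 1, Col1a2, was higher (at least 9.34-fold). The defining genes Col3a1 and Cdh5 were at no more than 5.11 and 4.58 units.

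**Figure D2:**
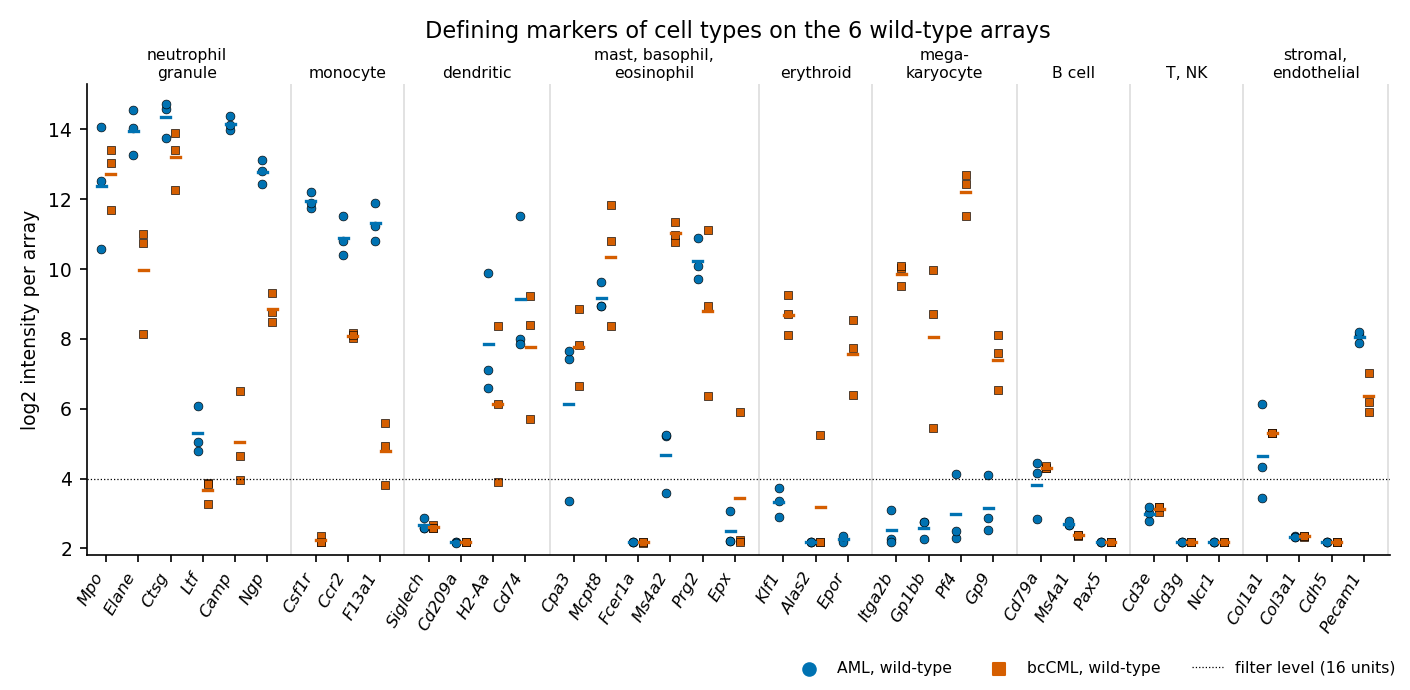
Log2 intensity of the defining markers of 9 cell types on each of the 6 wild-type arrays (AML circles, bcCML squares, short bars the group means, dotted line the filter level). Neutrophil and monocyte markers sit higher on the AML arrays, except Mpo and Ctsg, whose groups overlap, erythroid and megakaryocyte markers on the bcCML arrays except Alas2, and the T cell and B cell markers near or below the dotted line in both.

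Stem and progenitor genes showed a mixed pattern, in which the surface markers Kit, Cd34 and Flt3 did not pass and other surface markers did. Of 29 tested, 10 were higher and 6 lower (median 0.59). Kit, the receptor used to sort the AML cells, measured 332, 195 and 169 units on the AML arrays and 546, 146 and 134 on the bcCML arrays, a log2 difference of -0.01 ± 0.59 (adjusted p = 0.9902). Cd34 measured 1602, 304 and 1800.3 units in AML and 1047, 813 and 1039.5 in bcCML (0.00 ± 0.68, adjusted p = 0.996) and the receptor gene Flt3 642, 149 and 674 units in AML and 426, 412 and 462 in bcCML (0.11 ± 0.77, adjusted p = 0.925). All 3 markers overlapped between the leukaemias, and their standard errors were large enough that a difference of 2-fold could not have passed. Ly6a, the gene of Sca1 in the AML gate, had no probe set paired with 1 symbol and was not read. Msi2, which encodes an RNA-binding protein of stem cells, measured 449, 147 and 332 units on the AML arrays and 2655, 5110.1 and 4489 on the bcCML arrays, a log2 difference of 3.82 ± 0.50 (adjusted p = 0.000204), and its 5 tested probe sets gave log2 differences between 3.66 and 3.84. Adgrg1, an adhesion receptor of stem cells, was higher by 4.80 ± 0.47, Itga6 by 1.16 ± 0.30, and Slamf1, the stem cell marker CD150, at least 5.77-fold. Lower were Cd93 (-2.33 ± 0.27), Prom1 (-4.45 ± 0.68) and Igf2bp3, an RNA-binding protein of fetal cells, with 3358, 2041 and 2567 units in AML and 13.8, 17.8 and 16.2 in bcCML. The tetraspanin gene Tspan3, which the series title names, measured 74.9, 109 and 57.9 units in AML and 246, 310.2 and 266 in bcCML, a log2 difference of 1.81 ± 0.46 (adjusted p = 0.0108). The leukocyte antigen gene Ptprc measured 2385, 2954 and 2769 units in AML and 1114, 1550.2 and 1496 in bcCML, a log2 difference of -0.97 ± 0.35 at the threshold (adjusted p = 0.05004), and in a fit of the 6 wild-type arrays alone it passed.

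Cytokine receptor genes differed in RNA level in both directions, and neither surface protein nor response to cytokines was measured. Of 45 tested cytokine and growth factor receptor genes 9 were higher (20%, near the 17.7% of all genes). Lower were 14 (31.1%, against 19.6% of all genes), with a list median of -0.20. The lower ones included myeloid growth factor receptors. Besides Csf1r these were Csf2ra, of the granulocyte-macrophage factor, with 2783, 3235 and 3500 units on the AML arrays and 277, 537 and 183 on the bcCML arrays, a log2 difference of -3.39 ± 0.43 (adjusted p = 0.000156), Csf3r, of the granulocyte factor (at least 5.29-fold), and Il3ra (-1.51 ± 0.27). The interleukin 6 receptor genes Il6ra and Il6st were lower (log2 differences -4.03 ± 0.35 and -3.76 ± 0.68), and the tumour necrosis factor receptor genes Tnfrsf1a and Tnfrsf1b were lower (log2 differences -2.03 ± 0.34 and -3.27 ± 0.62). The interferon receptor chains Ifnar1, Ifnar2, Ifngr1 and Ifngr2 were all lower, with log2 differences between -2.40 and -1.34. The higher ones included receptors that were dim in AML. Il2ra, the alpha chain of the interleukin 2 receptor, measured 4.51, 4.52 and 4.57 units on the AML arrays and 595, 1987 and 2652 on the bcCML arrays, at least 91.5-fold higher in bcCML (adjusted p = 6.92e-07). Il18r1 was at least 66.3-fold higher in bcCML (adjusted p = 5.88e-07) and Il27ra at least 12.4-fold higher in bcCML (adjusted p = 3.01e-05). Tgfbr3 measured 17.7, 5.86 and 24.5 units in AML and 1412, 409 and 1352 in bcCML. Il1r1 measured 30.7, 10.9 and 25.04 units in AML and 239.5, 174 and 244 in bcCML. None of these overlapped between the leukaemias.

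Innate recognition receptors were mostly lower. Of 34 tested Toll-like receptor, C-type lectin and Fc receptor genes 22 were lower and 2 higher (median -2.47). Tlr1, a receptor of bacterial lipopeptides, measured 696, 599.9 and 755 units on the AML arrays and 4.93, 4.83 and 5.76 on the bcCML arrays, at least 42.5-fold lower in bcCML (adjusted p = 8.6e-09). Ly86, a partner of Cd180, was at least 194-fold lower in bcCML (adjusted p = 8.73e-09), the beta-glucan lectin Clec7a at least 28.6-fold lower in bcCML (adjusted p = 1.64e-06) and the lipopolysaccharide co-receptor Cd14 at least 19.7-fold lower in bcCML (adjusted p = 3.4e-05). The adaptor gene Tyrobp stayed readable in both, at 14160, 14434 and 14803 units in AML and 1480.4, 1631 and 748 in bcCML. Clec10a, a galactose-binding lectin, went against the rest with 237, 63.3 and 93.8 units in AML and 1662, 1611 and 873 in bcCML, a log2 difference of 3.57 ± 0.71 (adjusted p = 0.00281).

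Adhesion genes were lower more often than higher, with 16 of 39 lower and 7 higher (median -0.23). The integrin chains divided. Itgb2, the beta chain of leukocyte integrins, and Itga1, a collagen receptor, were lower (log2 differences -1.99 ± 0.33 and -5.38 ± 0.44), and Itgam, the CD11b chain, and Itgb5 were at least 2.57-fold and 23.96-fold lower, whereas the platelet chains Itga2b and Itgb3 were higher. Ncam1 measured 10956, 10716 and 8769 units on the AML arrays and 1046, 414 and 467 on the bcCML arrays, a log2 difference of -4.10 ± 0.35 (adjusted p = 9e-06). Ceacam1 measured 3129, 2404 and 3419 units in AML and 131, 108 and 53.7 in bcCML. The hyaluronan receptor gene Cd44 was lower (log2 difference -1.61 ± 0.26). Of 14 chemokine genes and receptors 3 were higher (Pf4, Ppbp and Ccl5) and 2 lower (Ccr2 and Cxcr4). Cxcr4, the receptor that retains cells in the marrow, measured 11092, 12851 and 15022 units in AML and 7749.9, 7370.2 and 6891 in bcCML (-0.81 ± 0.20, adjusted p = 0.00998).

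**Figure D3:**
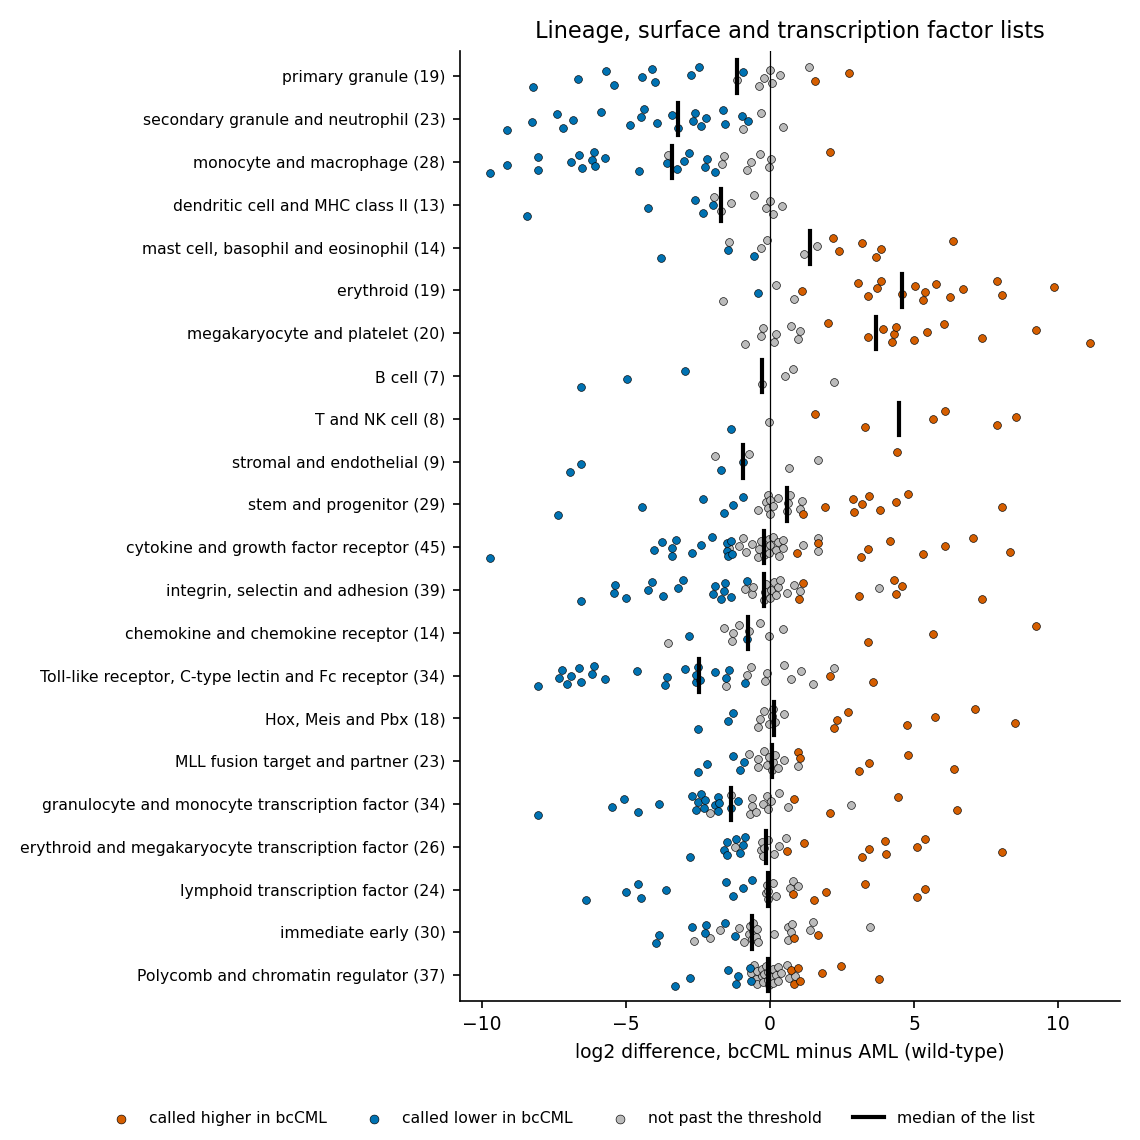
Log2 difference (bcCML minus AML, x axis) of every tested member of the lineage, surface and transcription factor lists, with the number tested in brackets, points coloured by the call and a bar at each list's median. The granule, monocyte and innate receptor lists lie to the left of 0, the erythroid, megakaryocyte and T and NK lists to the right, and the transcription factor lists spread to both sides.

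Hox genes of different clusters moved in different directions. Hoxa9, which NUP98-HOXA9 carries in part and which MLL-AF9 keeps active, measured 3810.3, 4906 and 4138 units on the AML arrays and 4786, 4087 and 3668 on the bcCML arrays, a log2 difference of -0.04 ± 0.15 (adjusted p = 0.869), and the groups overlapped. The array does not tell whether its probes read the fusion transcript. Hoxa10 was lower, at 1962, 2395 and 1918 units in AML and 283, 356 and 481 in bcCML, a log2 difference of -2.51 ± 0.31 (adjusted p = 0.000145), and so was Meis1, a partner of Hox proteins, at 889.6, 1009 and 999 units in AML and 403, 401 and 372 in bcCML, a log2 difference of -1.30 ± 0.18 (adjusted p = 0.000312). The Hoxb and Hoxc genes that passed went the other way. Hoxb5 measured 6.76, 7.0 and 15.5 units on the AML arrays and 1004, 1312 and 1494 on the bcCML arrays, at least 78.3-fold higher in bcCML (adjusted p = 6.69e-08). Hoxc4 measured 5.78, 7.31 and 12.7 units in AML and 2481, 2780.4 and 3804 in bcCML, at least 186-fold higher in bcCML (adjusted p = 5.52e-08). Hoxb6 was at least 14.9-fold higher, Hoxb4 was higher by 2.70 ± 0.33, Hoxc8 by 2.32 ± 0.42 and Hoxb3 by 4.74 ± 0.70, the last with AML array 3 at 186 units and the other AML arrays at 20.2 and 19.5. In the list of Hox, Meis and Pbx genes 7 of 18 were higher and 3 lower (median 0.12). The cofactor gene Pbx3 did not pass, at 3334, 1983 and 3519 units in AML and 4046, 3886 and 3998 in bcCML.

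Genes known as targets or partners of MLL fusions were not uniformly higher in the MLL-AF9 leukaemia. Of 23 tested, 6 were higher in bcCML (26.1%) and 5 lower (21.7%), against 17.7% and 19.6% of all genes (median 0.07). Mecom, a zinc finger factor of stem cells, measured 163, 943 and 345 units on the AML arrays and 3248, 4423 and 4651 on the bcCML arrays, a log2 difference of 3.43 ± 0.68 (adjusted p = 0.00284). Mllt3, the gene of AF9 itself, measured 14.03, 25.7 and 13.8 units in AML and 2318, 737 and 1705 in bcCML, a log2 difference of 6.39 ± 0.42 (adjusted p = 1.41e-06). Its AML level thus was near the filter, and which part of the transcript the probes read was not established. Bcl2, an inhibitor of cell death, was higher by 3.09 ± 0.62, while Mef2c (-1.05 ± 0.23) and Lgr4 (-2.20 ± 0.31) were lower.

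Transcription factors of granulocytes and monocytes were lower more often than higher, with 17 of 34 lower and 4 higher (median -1.35), the latter 2 without AML array 2 or bcCML array 1 or 3. Spi1, PU.1, measured 983, 994 and 1299.8 units on the AML arrays and 191, 246 and 124 on the bcCML arrays, a log2 difference of -2.59 ± 0.28 (adjusted p = 5.04e-05). Cebpd was at least 15.4-fold lower in bcCML (adjusted p = 3.86e-07). Cebpa, the factor needed to form granulocyte progenitors, measured 3784, 4816 and 4342 units in AML and 1169, 1889 and 661 in bcCML, a log2 difference of -1.92 ± 0.60 (adjusted p = 0.0279). Gfi1 measured 2611, 3582 and 1795 units in AML and 474, 806 and 292 in bcCML, a log2 difference of -2.41 ± 0.82 (adjusted p = 0.0405). The groups did not overlap for any of these 4 factors. The adjusted p of Cebpa became up to 0.106, and that of Gfi1 up to 0.13, without one wild-type array: both lost their call without any of them except bcCML array 2, and Gfi1 also without AML mutant array 2 or 3. Ets2 (-2.71 ± 0.31), Zeb2 (-2.29 ± 0.48) and Tfec (-5.47 ± 0.49) were lower as well. Zeb1, a zinc finger repressor related to Zeb2, was the inverse, with 26.7, 41.4 and 14.1 units in AML and 2608, 2087 and 2105 in bcCML, a log2 difference of 6.50 ± 1.02 (adjusted p = 0.0006899).

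Erythroid and megakaryocyte factors divided into 9 higher and 8 lower of 26 (median -0.15). Tal1 measured 5.98, 4.75 and 5.59 units on the AML arrays and 1303, 1436 and 1628 on the bcCML arrays, at least 90.6-fold higher in bcCML (adjusted p = 4.93e-09). Gata2 measured 2453, 434 and 4901 units in AML and 16527, 14995 and 16262 in bcCML, a log2 difference of 3.20 ± 0.77 (adjusted p = 0.00838), with AML array 2 the lowest. Gata1, which is X-linked and therefore outside the tested genes, was read at 9.44, 8.91 and 8.77 units in AML and 1445, 850 and 1182 units in bcCML. Gfi1b was higher by 4.04 ± 0.86, the Gata1 partner Zfpm1 at least 6.44-fold and the globin regulator Bcl11a by 5.09 ± 0.51. Lmo2, a member of the same protein complex as Tal1, was lower, at 11385, 10473 and 11433 units in AML and 3616, 3355 and 3899 in bcCML (-1.62 ± 0.13). Lyl1 was lower too, with a log2 difference of -1.51 ± 0.30. Tal1 and Lmo2 thus did not move together.

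Of 24 lymphoid transcription factor genes 6 were higher and 9 lower (median -0.08), the latter 5 without bcCML array 1. Bcl6, a repressor that Stat5 is known to silence, measured 1292, 1027 and 1884 units on the AML arrays and 17.5, 15.3 and 15.9 on the bcCML arrays, a log2 difference of -6.39 ± 0.46 (adjusted p = 2.63e-06). Aff3 measured 38.9, 51.3 and 85.2 units in AML and 2317, 2358 and 2281 in bcCML and was higher, and Ikzf3 was at least 8.01-fold lower. Immediate early genes, which respond within minutes to stimulation and to cell handling, gave 7 lower and 2 higher of 30 (median -0.62), with 4 lower without bcCML array 3. Rgs2 was lower (log2 difference -3.96 ± 0.76) and so was Zfp36 (-2.70 ± 0.62), while Fos, at 4396, 2606 and 744 units in AML and 5620.2, 188 and 32.7 in bcCML, ranged too widely to pass. Of 37 Polycomb and chromatin genes 7 were higher and 7 lower, of which neither share exceeds that over all genes by much (median -0.07). The de novo methyltransferase gene Dnmt3b was higher (332, 270.2 and 190.0 units in AML and 1118, 1420 and 1771 in bcCML) and Chd7 (-3.32 ± 0.30) and Cbx8 (at least 5.11-fold) were lower.

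**Figure D4:**
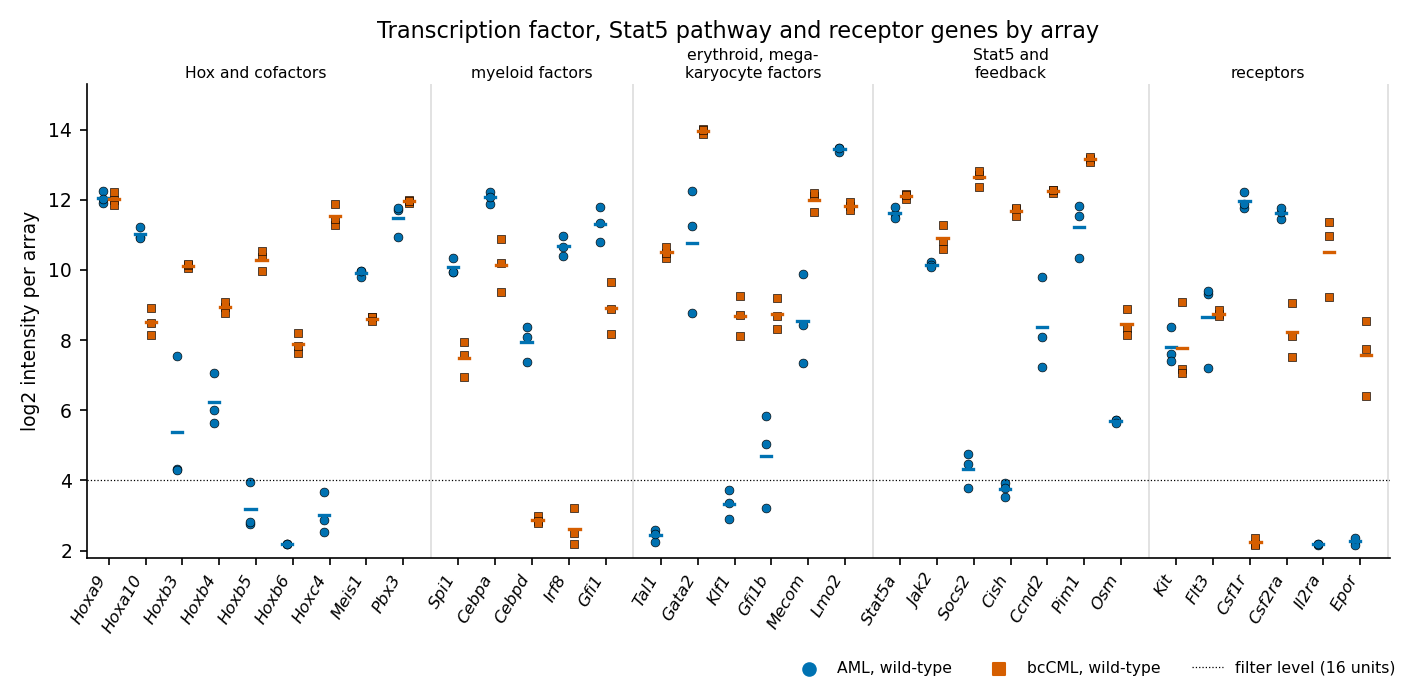
Log2 intensity of transcription factor, Stat5 pathway and receptor genes on each of the 6 wild-type arrays (AML circles, bcCML squares, short bars the group means, dotted line the filter level). Hoxa9, Kit and Flt3 overlap between the leukaemias, Hoxb and Hoxc genes, Tal1, Socs2 and Cish sit higher on the bcCML arrays, and Irf8, Cebpd and Csf1r higher on the AML arrays.

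Of 36 tested genes of BCR-ABL and Stat5 signalling 13 were higher and 7 lower (median 0.11). Socs2 and Cish, inhibitors of cytokine signalling that Stat5 induces, were near the filter in AML and far above it in bcCML. Socs2 measured 13.7, 26.7 and 22.3 units on the AML arrays and 5326, 6737 and 7308 on the bcCML arrays, a log2 difference of 8.31 ± 0.26 (adjusted p = 4.93e-09). Cish measured 11.4, 15.3 and 13.9 units in AML and 2955, 3393 and 3484 in bcCML, at least 204-fold higher in bcCML (adjusted p = 7.69e-09). The cyclin gene Ccnd2 measured 274, 149.6 and 888 units in AML and 5011, 4684 and 4934 in bcCML, a log2 difference of 3.88 ± 0.52 (adjusted p = 0.0002303), the kinase gene Pim1 1287, 2949 and 3629 units in AML and 9263, 8652 and 9535 in bcCML, a log2 difference of 1.93 ± 0.33 (adjusted p = 0.00107), and the cytokine gene Osm was higher by 2.77 ± 0.41. No bcCML array overlapped an AML array for these 5 genes. Stat5a itself was higher by 0.48 ± 0.14, a call that ended without AML array 1 or 2 or bcCML array 1 or 3 (adjusted p up to 0.0823). The Src family kinase gene Fyn was higher by 3.64 ± 0.66, the adaptor gene Gab2 by 1.27 ± 0.31 and Dok2, a substrate of BCR-ABL, by 2.15 ± 0.27. Lower genes included Sirpa (-4.36 ± 0.42), which gives inhibitory signals in myeloid cells, and the phosphatase gene Ptpn6 (-1.06 ± 0.23).

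The milk protein genes Csn2 and Csn1s2a, which Stat5 drives in the mammary gland, were picked after their values were seen. Csn2, beta casein, measured 4.51, 4.52 and 4.5 units on the AML arrays and 508, 1482 and 2714 on the bcCML arrays, at least 79.3-fold higher in bcCML (adjusted p = 1.89e-06). Csn1s2a measured 4.74, 4.86 and 4.86 units in AML and 689, 798 and 3082 in bcCML, at least 74.5-fold higher in bcCML (adjusted p = 2.79e-05). Neither gene overlapped, and both varied several-fold among the bcCML arrays. The promoters of Cish and Csn2 are shown with the Stat5 motif searched, TTCNNNGAA, in capitals (chr9:107296489-107296688, plus strand, and chr5:87699396-87699595, minus strand).
Cish: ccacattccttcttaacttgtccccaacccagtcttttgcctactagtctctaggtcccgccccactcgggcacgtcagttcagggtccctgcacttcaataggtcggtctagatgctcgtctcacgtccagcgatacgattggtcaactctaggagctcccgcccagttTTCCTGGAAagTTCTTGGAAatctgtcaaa
Csn2: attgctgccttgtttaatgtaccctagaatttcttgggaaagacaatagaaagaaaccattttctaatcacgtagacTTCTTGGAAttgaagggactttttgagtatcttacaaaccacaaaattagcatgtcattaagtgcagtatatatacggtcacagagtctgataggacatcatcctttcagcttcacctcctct
Cish held 2 matches, beginning at bases 1 and 12 after its listed start, and Csn2 held 1, beginning 93 bases before its start. Of the 8 higher Stat5 list genes with a promoter entry, Cish was the only one with a match, and the motif was present in 8.25% of the tested genes with an entry and in 8.30% of all promoters.

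Genes of the Ras and MAPK pathway and its feedback moved in both directions, with 8 higher and 13 lower of 35 (median -0.28). The Sprouty inhibitors split: Spry2 was lower, with 2378, 1574 and 1910.4 units in AML and 472, 497 and 549 in bcCML, and Spry1 was at least 5.697-fold higher in bcCML (adjusted p = 3.18e-06). Of the exchange factors that activate Ras, Rasgrp1 was at least 15.01-fold higher and Rasgrp2 and Rasgrp4 lower (log2 differences -2.10 ± 0.34 and -3.31 ± 0.51). Braf and Map2k1 were lower (log2 differences -0.80 ± 0.13 and -1.15 ± 0.23). Dusp22, a phosphatase, measured 1245, 1934 and 1651 units on the AML arrays and 12.5, 13.9 and 13.8 on the bcCML arrays, at least 99.01-fold lower in bcCML (adjusted p = 2.11e-05).

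In the PI3K, Akt and mTOR list 12 were higher and 11 lower of 39 (median -0.02), with members of 1 family on both sides. Pik3cg, the gamma catalytic subunit that G protein-coupled receptors use, and its regulatory subunit Pik3r5 were lower (log2 differences -1.13 ± 0.21 and -4.03 ± 0.80), and the other regulatory subunit Pik3r6 was at least 38.7-fold lower in bcCML (adjusted p = 5.58e-07). Among the protein kinase C genes, Prkcb measured 5018, 5080 and 4657 units in AML and 519.5, 707 and 301 in bcCML. Prkcd measured 786, 1013 and 927 units in AML and 295, 193 and 199 in bcCML. Both were lower. Prkcq measured 6.32, 6.37 and 4.52 units on the AML arrays and 741, 430.1 and 774 on the bcCML arrays, at least 39.2-fold higher in bcCML (adjusted p = 2.88e-07), and Prkca was at least 18.99-fold higher in bcCML (adjusted p = 5.52e-08). The beta and delta isoforms were thus lower and the theta and alpha isoforms higher.

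Developmental pathways had members on both sides. Of 17 Wnt genes 6 were higher and 3 lower (median 0.12). Rnf43, a ubiquitin ligase that removes Wnt receptors, was at least 8.77-fold lower in bcCML (adjusted p = 4.93e-09), its relative Znrf3 was higher by 2.19 ± 0.40, and the receptor gene Fzd6 was at least 11.8-fold higher in bcCML (adjusted p = 4.64e-05). Of 19 Notch genes 5 were higher and 6 lower (median 0.01), and the count of higher genes became 2 without bcCML array 3 and 3 without any other wild-type array. Notch1 measured 1365, 1867 and 1379.7 units on the AML arrays and 77.4, 252 and 99.02 on the bcCML arrays, a log2 difference of -3.61 ± 0.40 (adjusted p = 6.61e-05), Notch3 was at least 16.2-fold higher in bcCML (adjusted p = 0.000505), and Numb, an inhibitor of Notch, was lower (log2 difference -1.41 ± 0.27). Of 26 genes of TGF-beta and BMP signalling 8 were higher and 4 lower (median -0.02), led by Bmpr2 with 294, 199.6 and 553 units in AML and 2547, 2878 and 3155 in bcCML and by Tgfbi, a secreted target of the pathway, with 1285, 1033 and 2765 units in AML and 5.41, 19.2 and 5.67 in bcCML. The higher count became 5 without AML array 1 or 2 or bcCML array 1 or 2, and the lower count 2 without bcCML array 2 and 1 without bcCML array 3.

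Of 40 interferon response genes 5 were higher (12.5%) and 8 lower (20%), shares below and near the 17.7% and 19.6% of all genes (median -0.47). Mx1 measured 279, 1601 and 705 units on the AML arrays and 28.9, 18.5 and 26.3 on the bcCML arrays, a log2 difference of -4.82 ± 0.90 (adjusted p = 0.00192). Ifi47 measured 409, 835 and 138 units in AML and 1931, 2785 and 2945 in bcCML, a log2 difference of 2.80 ± 0.53 (adjusted p = 0.00224). AML array 2 was the highest AML array for both, and without it 9 genes were higher and 5 lower. Ifitm1, a membrane protein that hinders virus entry and is high in stem cells, measured 204, 292 and 654 units in AML and 7769.9, 10317 and 10159 in bcCML. Genes of the p53 response included 7 higher and 2 lower of 21 (median 0.51), with the lower count at 0 without AML array 1 or 3 or bcCML array 2 or 3. Zmat3 was higher by 2.99 ± 0.49, Sesn1 by 1.13 ± 0.15. Perp, a membrane protein of dying cells, measured 18.3, 18.3 and 538 units in AML and 6223, 6189 and 4871 in bcCML, with AML array 3 apart from the other AML arrays. In the Bcl2 family 3 were higher and 6 lower of 23 (median -0.40). Bcl2, which protects cells, was higher by 3.09 ± 0.62. The death-promoting genes Bcl2l11 (-2.17 ± 0.41), Bid (-1.10 ± 0.13) and Bik (at least 1.77-fold) and the apoptosome gene Apaf1 (-1.30 ± 0.16) were lower.

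Few proliferation genes passed. No mitosis gene of 45 passed in limma (8 at an unadjusted p under 0.05, all lower, and 6 called in a fit of the 6 wild-type arrays alone, 2 higher and 4 lower). Among the arrays, leaving out AML mutant array 1 gave the most calls, 2 higher and 9 lower, AML array 3 gave 3, AML mutant array 2 gave 3, bcCML array 2 gave 4 and bcCML mutant array 1 gave 1. Of the members 40 were estimated below 0, with a median of -0.43. Of 45 DNA replication genes 3 were higher and 4 lower (median -0.03), the former 1 and the latter 8 without AML array 3, and the latter 2 without AML array 2 or bcCML array 1 or 3. Of 25 genes of D cyclins and cell cycle inhibitors 5 were higher and 6 lower (median 0.15), the former 3 without AML array 1 or bcCML array 2. The D cyclins, which start the cell cycle, did not move one way. Ccnd2 was higher, as above, while Ccnd3 measured 1422, 1847 and 2022 units on the AML arrays and 631, 806 and 710.3 on the bcCML arrays, a log2 difference of -1.29 ± 0.19 (adjusted p = 0.0004199). A second, dimmer probe set of Ccnd3 gave the opposite sign without passing, 1.55 ± 0.55 (adjusted p = 0.0533), so its direction rests on the brighter one. Ccnd1 measured 1097, 333 and 969 units in AML and 166, 126 and 144 in bcCML, a log2 difference of -2.29 ± 0.52 (adjusted p = 0.00595). The inhibitors Cdkn2a (2.93 ± 0.42) and Cdkn2b (at least 4.203-fold) were higher, and Cdkn2d (-1.57 ± 0.15) and Cdkn1b (-0.88 ± 0.20) lower.

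Ribosome assembly and Myc target genes were higher by small amounts. Of 54 tested, 30 were higher and 4 lower (median 0.60). Ncl, nucleolin, measured 5877, 5880.4 and 5913 units on the AML arrays and 10522, 9473 and 10334 on the bcCML arrays, a log2 difference of 0.78 ± 0.14 (adjusted p = 0.00174). Gnl3 measured 3685, 3372 and 3649 units in AML and 7146, 6679.8 and 7244 in bcCML, a log2 difference of 0.98 ± 0.15 (adjusted p = 0.000563). Fbl, the methyltransferase of ribosomal RNA, was higher by 0.61 ± 0.13 and Npm1, nucleophosmin, by 0.75 ± 0.15. The 4 lower members included Mxi1 (-1.55 ± 0.23) and Mxd4 (-1.01 ± 0.24), repressors that compete with Myc for its partner. Mycn was higher (1087, 1962 and 2285 units in AML and 5395, 7162 and 6730.1 in bcCML, 1.91 ± 0.50), and Myc, at 864, 636 and 850.3 units in AML and 1830, 1113 and 1129 in bcCML, did not pass (adjusted p = 0.219).

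Glycolytic genes moved in both directions, with 10 higher and 7 lower of 37 (median 0.25). Ldhb, a subunit of lactate dehydrogenase, measured 368, 265 and 314 units on the AML arrays and 10.9, 8.96 and 15.9 on the bcCML arrays, at least 19.5-fold lower in bcCML (adjusted p = 3.66e-06). Ldha measured 9381, 9423 and 8101 units in AML and 15970, 14536 and 14351 in bcCML, a log2 difference of 0.74 ± 0.12 (adjusted p = 0.000992). Hexokinase 3, encoded by Hk3, measured 2242, 2475 and 1492 units in AML and 60.4, 171 and 21.3 in bcCML, a log2 difference of -5.07 ± 0.65 (adjusted p = 0.000176), and Hk1 was higher by 1.29 ± 0.20. Pklr, the pyruvate kinase of liver and red cells, measured 7.96, 7.57 and 8.0 units in AML and 1572, 446 and 186 in bcCML, highest on bcCML array 1. The lactate carriers Slc16a1 (1.94 ± 0.25) and Slc16a3 (-1.63 ± 0.36) went opposite ways, the glucose carrier Slc2a3 was higher by 2.16 ± 0.49 and the gluconeogenic enzyme gene Fbp1 lower (log2 difference -2.56 ± 0.51). In the pentose phosphate and glutathione list 9 were higher and 9 lower of 33 (median 0.05), the former 4 without bcCML array 1 and 5 without AML array 3 or bcCML array 3. Pgd and Taldo1 of the pentose phosphate path were lower (log2 differences -1.90 ± 0.19 and -0.96 ± 0.16), and so was Gsr, glutathione reductase (-1.19 ± 0.21). Nqo1 and Gclm, which the stress factor Nrf2 is known to induce, were higher by 2.89 ± 0.40 and 2.01 ± 0.21.

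Serine and one-carbon genes were higher (11 of 26, 1 lower, median 0.50), which became 6 without AML array 3 or bcCML array 2. Phgdh, the first enzyme of serine synthesis, measured 774, 522 and 459.6 units on the AML arrays and 7595, 8624 and 7912 on the bcCML arrays, a log2 difference of 3.82 ± 0.26 (adjusted p = 1.99e-06). The amino acid carrier genes Slc1a4 and Slc1a5 were higher by 3.06 ± 0.61 and 0.99 ± 0.15, and the folate enzyme gene Mthfd2l by 1.15 ± 0.23. In branched-chain amino acid metabolism 6 were higher and 5 lower of 25 (median 0.06). Bcat1, the cytosolic transaminase that BCR-ABL leukaemia has been shown to use, measured 14.1, 5.55 and 15.9 units on the AML arrays and 899, 2592 and 661 on the bcCML arrays, at least 72.2-fold higher in bcCML (adjusted p = 2.05e-05). The carrier pair Slc7a5 and Slc3a2 was higher by 1.23 ± 0.18 and 1.33 ± 0.18, and the breakdown genes Bckdha (-2.07 ± 0.40), Mccc1 (-1.23 ± 0.20) and Acad8 (-1.04 ± 0.21) were lower.

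Nucleotide synthesis genes were higher in 16 of 36 cases and lower in 5 (median 0.39), the latter 3 without bcCML array 3. Of the path to purines, Ppat (1.03 ± 0.16), Pfas (1.17 ± 0.22) and Adsl (0.92 ± 0.18) were higher, as was Cad of the path to pyrimidines (1.05 ± 0.19). Cda, cytidine deaminase, which also inactivates cytarabine, measured 4.51, 4.52 and 4.5 units on the AML arrays and 835, 587 and 470.0 on the bcCML arrays, at least 38.3-fold higher in bcCML (adjusted p = 1.92e-09). The purine enzyme gene Adssl1 was lower, with 2197, 1837 and 1747 units in AML and 308, 226 and 165 in bcCML, and the ectonucleotidase gene Entpd1 was at least 6.68-fold lower in bcCML (adjusted p = 3.33e-05).

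Lipid synthesis genes were higher in 10 of 37 and lower in 2 (median 0.40). Fads2, a fatty acid desaturase, measured 23.6, 27.9 and 23.6 units on the AML arrays and 789, 761 and 708 on the bcCML arrays, a log2 difference of 4.91 ± 0.27 (adjusted p = 3.32e-07), and Fads1, Elovl6 and Acss2 were higher by 2.72 ± 0.31, 3.59 ± 0.38 and 3.35 ± 0.35. Of the cholesterol path, Idi1 (2.20 ± 0.28), Lss (1.96 ± 0.24) and Sqle (1.32 ± 0.28) were higher. Among genes of fatty acid use and storage (6 higher and 7 lower of 37, median -0.07), the lipid droplet coats Plin2 and Plin3 were lower (log2 differences -2.60 ± 0.29 and -3.65 ± 0.31) and the fatty acid carrier gene Fabp5 measured 803, 1439.6 and 1187 units in AML and 10299, 12997 and 14226 in bcCML, a log2 difference of 3.48 ± 0.33 (adjusted p = 2.35e-05).

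Respiratory chain genes moved little: 8 of 69 were higher, all by less than 2-fold, with a median of 0.11. That count became 3, 4 or 5 without any one wild-type array. It was 5 when bcCML mutant array 1 or 2 was dropped, and its share of the list lies below the 17.7% called higher over all genes. Ndufv1 of complex I was higher by 0.70 ± 0.13 and Uqcrc2 of complex III by 0.53 ± 0.13. In the TCA cycle list 7 of 26 were higher and 1, Idh1, lower, with 6673, 7139.8 and 7241 units on the AML arrays and 1834, 3155 and 1983 on the bcCML arrays, a log2 difference of -1.64 ± 0.26 (adjusted p = 0.000726) (list median 0.17). The higher count became 4 without AML array 3 and 3 without bcCML array 2 or 3. The malic enzyme gene Me1 was at least 5.66-fold higher in bcCML (adjusted p = 0.000202).

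Lysosome genes were lower in 16 of 30 cases and higher in 3 (median -0.95). The cathepsin genes Ctsb (-2.19 ± 0.23) and Ctsa (-1.79 ± 0.31), the hexosaminidase gene Hexa (-1.76 ± 0.32) and the membrane protein gene Lamp1 (-1.07 ± 0.11) were lower, and Glb1 (1.64 ± 0.29) was higher. Ctsb, Ctss and Cd68 of this list are also members of the monocyte list, and the part of monocyte genes in the count was not tested. Lipid mediator genes showed some of the widest gaps, with 7 higher and 7 lower of 18 (median 1.05). Hpgd, which breaks down prostaglandins, measured 13297, 11829 and 11385 units on the AML arrays and 5.7, 6.49 and 5.25 on the bcCML arrays, at least 759-fold lower in bcCML (adjusted p = 1.65e-08), the widest fall of the comparison. Ptges, which makes prostaglandin E2, was at least 11.1-fold lower in bcCML (adjusted p = 3.79e-05). Alox5, which starts leukotriene synthesis, measured 179, 64.2 and 417 units in AML and 1836, 2342 and 2355 in bcCML, a log2 difference of 3.68 ± 0.58 (adjusted p = 0.000709). Its helper Alox5ap measured 7999, 7281 and 9361 units in AML and 2872, 3748 and 3037 in bcCML, a log2 difference of -1.35 ± 0.23 (adjusted p = 0.00116). Thromboxane synthase, Tbxas1, was higher by 2.94 ± 0.29, and the prostaglandin E2 receptor gene Ptger3 measured 17.3, 4.52 and 6.77 units in AML and 333, 395 and 375 in bcCML. In arginine and polyamine metabolism 2 genes were higher and 3 lower of 14 (median -0.04, 1 higher without AML array 3 or any bcCML array), with Odc1, which starts polyamine synthesis, higher by 0.99 ± 0.22 and Gatm, which starts creatine synthesis, lower (log2 difference -3.16 ± 0.42).

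**Figure D5:**
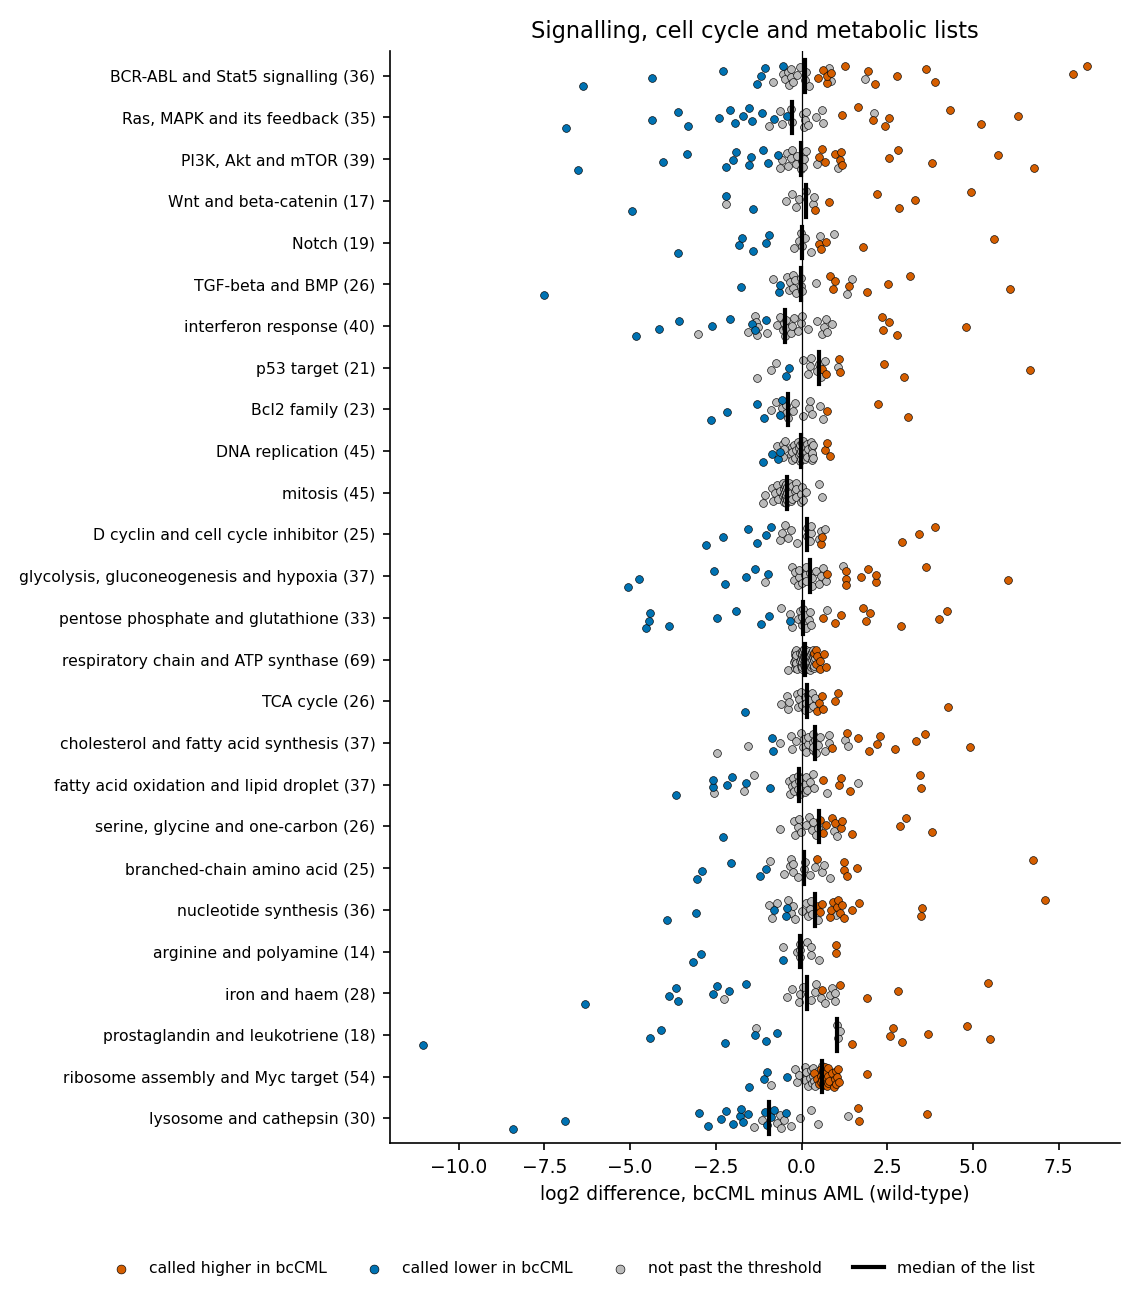
Log2 difference (bcCML minus AML, x axis) of every tested member of the signalling, cell cycle and metabolic lists, with the number tested in brackets, points coloured by the call and a bar at each list's median. Mitosis and respiratory chain members lie within a narrow band, ribosome assembly members shift to the right by a median of 0.60, and lysosome members to the left by a median of -0.95.

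Among the 15 widest rises, those outside the lists above were of mixed function. Ctla2a, a protease inhibitor of lymphoid and stem cells, measured 6.0, 6.61 and 6.0 units on the AML arrays and 21635, 17953 and 22483 on the bcCML arrays, at least 1287-fold higher in bcCML (adjusted p = 1.76e-11), the widest fitted difference of all. Trgv4, a variable segment of the T cell receptor gamma locus, measured 4.5, 4.51 and 4.51 units in AML and 10338, 13683 and 14081 in bcCML, at least 786-fold higher in bcCML (adjusted p = 8.52e-12). Pdcd1, the inhibitory receptor PD-1, measured 4.76, 4.74 and 4.73 units in AML and 4287, 3375 and 2009 in bcCML, at least 192-fold higher in bcCML (adjusted p = 1.18e-09). For each of the 3, the AML arrays were at or near the floor and every bcCML array lay far above them. Apoa1, an apolipoprotein made mainly by liver, was at least 1002-fold higher in bcCML (adjusted p = 1.17e-09), Podxl, a sialomucin of endothelium and stem cells, at least 157-fold higher in bcCML (adjusted p = 1.76e-11), and Khdc1a at least 543-fold higher in bcCML (adjusted p = 1.91e-08). The actin regulators Enah and Ablim1 were at least 229-fold and 161-fold higher and the trafficking gene Rab38 at least 161-fold. Dnajc6, a clathrin uncoating factor, measured 4.52, 20 and 11.2 units in AML and 5423, 4019 and 4843 in bcCML. Among the 15 widest falls outside the lists were the apolipoprotein gene Apoc2, which was at least 248-fold lower in bcCML (adjusted p = 1.3e-06), and Tifab, an inhibitor of innate signalling, which was at least 227-fold lower in bcCML (adjusted p = 1.78e-06). Tctex1d1, Sgip1 and the adhesion receptor gene Adgrl4 were at least 159-fold, 125-fold and 124-fold lower.

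The same difference was read in Msi2 mutant cells of the 2 leukaemias. Of the 3767 genes called between the wild-type arrays, 3297 had mutant arrays that did not overlap in the same direction and 68 had a mutant difference of opposite sign. The mutant arrays were apart in the same way for all 16 called erythroid genes, all 20 called secondary granule genes, 17 of 20 called monocyte genes and 32 of 34 called ribosome and Myc target genes. These counts stand beside the 3297 of 3767 for all called genes. The share of all tested genes whose mutant arrays did not overlap was not counted. On the wild-type arrays it was 52.3%. A test of whether the difference between leukaemias itself differed between wild-type and mutant cells called 0 genes in limma, with 962 at an unadjusted p under 0.05. List medians in mutants were 4.96 for erythroid, -4.15 for secondary granule and -3.60 for primary granule genes, the last against -1.16 in wild-type cells. Other medians were near 0 or of the other sign in mutants: 0.05 for dendritic cell genes, -0.003 for mast cell, basophil and eosinophil genes and 0.45 for interferon response genes, against -1.72, 1.40 and -0.47 in wild-type cells. Mpo, which overlapped between the wild-type arrays, had a mutant log2 difference of -2.59. Cd34 and Flt3 had mutant differences of 2.41 and 1.70 against wild-type values near 0, and the interaction terms of all 3 genes did not pass.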

How the data were processed

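RNA of 12 samples, 3 in each of 4 groups, was hybridised to Affymetrix mouse arrays after extraction with Trizol, per the labels' protocols. The deposited values are intensity units on a linear scale, and the submitters' processing notes name GCRMA. Its settings and version are not given in the sources used here, and no value lay below 4.49 units. Intensities were turned to log2 with no further scaling. Of 45037 probe sets 34945 had 1 gene symbol in the platform annotation, 932 several and 9160 were not listed or had no symbol. Symbols were updated through RefSeq (GRCm38.p6), which matched 34741. Of 18659 probe sets above a log2 intensity of 4 on at least 3 of the 6 wild-type arrays, 586 on X or Y and 47 with no chromosome were set aside, which left 18026.

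The test was limma 3.58.1 in R 4.3.3, fitted to 4 group means over all 12 arrays (8 residual and 2.28 prior degrees of freedom), so that the mutant arrays add to the estimate of spread. A gene was read from its brightest probe set over the 6 arrays, and p values were adjusted by Benjamini-Hochberg over all genes fitted, the sex-linked ones included. On simulated data with 200 changed genes for each size, 52% of log2 differences of 1 and 86% of those of 2 were recovered, and 5.16% of calls were false. No other gene of the 10471 was changed and the noise was independent and normal, whereas 37.2% of genes were called in the data. The adjusted threshold depends on that share, so these rates describe the simulated setting and not this comparison. The labels call the samples biological replicates without saying what they share. A p value weighs a difference between group means against the spread of samples within the 4 groups, pooled over all 12 arrays.

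The genes named are members of the gene lists, the 15 largest rises and 15 largest falls among called genes whose wild-type arrays did not overlap, and a fixed set of progenitor and leukaemia genes. Names outside that rule are said to have been picked after their values were seen. The members, the 48 lists and the rule were chosen with earlier results of these data known. Alternatives changed the filter, the pseudocount, the scaling, the moderation, the choice of probe set, the arrays in the fit and the replicate block, and left out each of the 12 arrays in turn.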

Additional observations from a re-analysis of the deposited data

How the results depend on the processing

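The count of genes past the threshold, 3767, lay between 3013 and 4081 when each of the 12 arrays was left out in turn. It was 3589 with the 6 wild-type arrays alone, of which 3309 were among the 3767. It was 3485 with no filter, 3407 with a filter at log2 above 6, 3795 with a pseudocount of 16, 3855 after quantile normalization, 3850 with arrays centred on their median (1988 higher and 1862 lower), 3887 with an intensity trend and 3888 with the mean of a gene's probe sets. The count at 2-fold or more, 2380, lay between 2144 and 2444 without single arrays and was 2002 with the filter at log2 above 6. Samples of the same replicate number had deviations that correlated at 0.016, 0.259 and 0.116, so no pairing was assumed, and whether they shared a batch is not settled by these values. With the replicate number as a block the count past the threshold was 3679, of which 3546 were among the 3767, and with the block on the 6 wild-type arrays alone 3362. The median log2 difference over all genes fitted was 0.0056, 0.0252 after quantile normalization and 0.0535 after centring.

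Of 6801 values of 310 named genes under the alternatives, 6720 kept their direction and their side of the threshold, 52 values of 11 genes lost the call and 12 values of 3 genes gained it. Sign changes occurred in 17 values of 6 genes. The Ccnd3 log2 difference became 0.127 with the mean of its probe sets, which differ in sign. The other 5 genes were not called. With the pseudocount the Cd34 log2 difference was -0.005 and the Kit log2 difference 0.003, and the latter was 0.032 after quantile normalization and 0.036 after centring. The Hoxa9 log2 difference was 0.012 after centring. Without single arrays the Kit log2 difference lay between -0.667 and 0.346, the Cd34 log2 difference between -0.823 and 0.460, the Flt3 log2 difference between -0.605 and 0.487, the Mpo log2 difference between -0.581 and 1.167 and the Hoxa9 log2 difference between -0.138 and 0.065. The cause was not tested. Of 2112 counts of called list members under the alternatives, 1968 stayed within 1.5 times, and of the 144 that moved 99 did so without a single array. The respiratory chain count fell from 8 to 4 on the 6 wild-type arrays alone and to 1 with the block added, and the TCA cycle count from 7 to 3 in both.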

Other observations

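Gene families outside the lists were read after their values were seen. All 6 tested Gimap genes, which encode small GTPases of lymphocytes, were higher in bcCML, against 17.7% of all genes. Gimap1 measured 4.77, 4.77 and 4.51 units on the AML arrays and 201, 417 and 377 on the bcCML arrays, at least 19.8-fold higher in bcCML (adjusted p = 5.52e-08), and Gimap8 was at least 27.9-fold higher in bcCML (adjusted p = 0.000124). Of 5 tested variable segments of T cell receptor genes 4 were higher, Trgv4 included, and Trbv1 did not pass. Trgv4, Trbv13-2, Trgv1, Gimap1 and Gimap8 lay below 16 units on every AML array. The filter passed them only through the bcCML arrays, which in part set the counts of both families. Trbv13-2 measured 5.37, 5.35 and 5.37 units on the AML arrays and 499, 448 and 874 on the bcCML arrays, at least 36.3-fold higher in bcCML (adjusted p = 4.93e-09). Trgv1 measured 5.41, 4.75 and 4.84 units in AML and 162, 718 and 1159 in bcCML. Of 30 tested ABC transporter genes 7 were higher and 9 lower, against 17.7% and 19.6% of all genes. Abcg2, the efflux pump that marks side population stem cells, measured 48.9, 41.3 and 27.5 units on the AML arrays and 2948, 2885 and 2439 on the bcCML arrays, a log2 difference of 6.17 ± 0.28 (adjusted p = 8.19e-08). Abcb1a, the drug pump P-glycoprotein, was at least 31.2-fold higher in bcCML (adjusted p = 8e-07), and Abcc1 was higher by a log2 difference of 1.56 ± 0.22. Abca13 was at least 86.3-fold lower in bcCML (adjusted p = 6.66e-09) and Abcd2, a peroxisomal fatty acid carrier, measured 589, 751 and 387 units in AML and 24.8, 18.2 and 15.5 in bcCML.

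Tph1 and Cyp11a1, again picked after their values were seen, lay below the filter level on every AML wild-type array. Tph1, which starts serotonin synthesis, measured 4.68, 5.63 and 8.29 units on the AML arrays and 1603, 4314 and 1284 on the bcCML arrays, at least 129-fold higher in bcCML (adjusted p = 3.68e-07). Cyp11a1, which makes pregnenolone from cholesterol, measured 4.53, 4.51 and 4.5 units on the AML arrays and 1513, 951 and 370.1 on the bcCML arrays, at least 50.7-fold higher in bcCML (adjusted p = 3.32e-05). The groups did not overlap for either gene. The aldo-keto reductase gene Akr1c12 was higher by a log2 difference of 6.01 ± 0.41. Of the tetraspanin genes named Tspan, 11 were tested, with 5 higher and 2 lower, against 17.7% and 19.6% of all genes. Tspan33 was at least 18.02-fold higher in bcCML (adjusted p = 0.000259), Tspan13 measured 25.5, 286 and 19.96 units in AML, highest on AML array 2, and 3187, 1765 and 1416 in bcCML, and Tspan5 was lower (log2 difference -0.82 ± 0.18). Lin28a, an RNA-binding protein of embryonic and fetal cells, measured 929.9, 605 and 758 units in AML and 25.1, 27.1 and 25.02 in bcCML, a log2 difference of -4.87 ± 0.30 (adjusted p = 8.94e-07).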
